A study of Mus musculus with 8 samples.

Results

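Transcripts of L1Md_Gf, a LINE1 subfamily of the mouse, were compared with those of the related subfamilies L1Md_F, L1Md_F2 and L1Md_F3 in mouse embryonic stem cells that lacked DAXX, DNA methyltransferases or both. The members were the copies annotated to these 4 subfamilies in the deposited repeat table, on chromosomes or scaffolds whose names do not contain "random". They numbered 4784 of the 17857 repeat copies listed, with 124 L1Md_Gf, 267 L1Md_F, 3673 L1Md_F2 and 720 L1Md_F3 copies. Each member, here called a copy, is 1 repeat element of at least 5001 bp at 1 genomic position.

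LINE1 elements are retrotransposons that code for the proteins of their own reverse transcription and insertion, and each carries a promoter at its 5′ end. Mouse LINE1 subfamilies are told apart largely by the repeated monomers of that promoter. L1Md_A, L1Md_T and L1Md_Gf are the young subfamilies that still hold copies able to move, whereas the F subfamilies are older, and most of their copies have decayed. The monomers of L1Md_Gf are related to those of the F type. In embryonic stem cells, DNA methylation and repressive histone marks both act on such promoters, and DAXX is a chaperone of histone H3.3 that works with ATRX on repeats.

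The 8 groups, each of 1 library, were TKO DAXX-knockout 2i, TKO 2i, TKO DAXX-knockout regular, TKO regular, J1 DAXX-knockout 2i, J1 2i, J1 DAXX-knockout regular and J1 regular. J1 is a mouse embryonic stem cell line, and TKO is a line in which 3 DNA methyltransferases (DNMTs) were knocked out, without the labels naming them. DAXX was knocked out in each of these backgrounds. Here "2i" stands for 72 hours with the inhibitors PD0325901 (1 µM, against MEK) and CHIR99021 (3 µM, against GSK3b) plus vitamin C (100 µg/ml), and "regular" for the same embryonic stem cell medium without them. For the J1 DAXX-knockout libraries, the genotype field reads wild type and the knockout is given in the title and description. The labels say nothing of clones, passages or separate cultures, so each genotype may be 1 clone. They give no batch. The levels of Daxx, of the DNMT genes and of stem cell markers were not analysed here, because the transcript tables carry no gene names, and the labels were taken as given.

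Library totals recovered from the table ranged from 67.4 to 99.1 M reads, and RPM below are values in reads-per-million of that total. The 4 subfamilies together took between 0.212% and 0.628% of a library. Since no group had a replicate, a factor is described by the 4 library pairs in which nothing else differed. The tests took their spread from the residual of a fit over all 8 libraries. That residual holds noise and any interaction left out of the fit. Loss of the DNMTs, or of DAXX, cannot be told apart from other differences between the lines. These are bulk libraries, in which fewer cells that transcribe a copy and less RNA per cell cannot be told apart.

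Per copy and per kilobase, L1Md_Gf was far above the F subfamilies. The mean RPKM of a copy over the 8 libraries had a median of 1.31 among L1Md_Gf copies, against 0.0252 in L1Md_F, 0.0311 in L1Md_F2 and 0.0818 in L1Md_F3. At least 1 RPKM was reached by 70 of the 124 L1Md_Gf copies, against 1 of 267, 25 of 3673 and 4 of 720 copies of L1Md_F, L1Md_F2 and L1Md_F3. Copies at or above the L1Md_Gf median numbered 1, 18 and 3 in the same F subfamilies. None of the L1Md_Gf copies lacked reads in all 8 libraries, while 31 L1Md_F, 77 L1Md_F2 and 2 L1Md_F3 copies did. The L1Md_Gf distribution lay beside those of L1Md_A and L1Md_T, the other young subfamilies, whose medians were 1.48 and 1.27 RPKM.

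**Figure D1:**
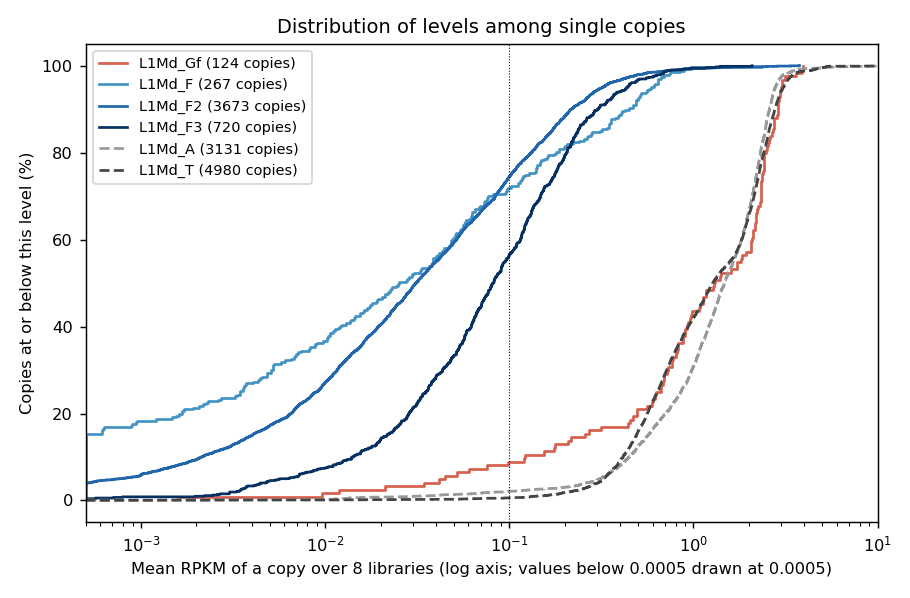
Cumulative share of copies (vertical axis, percent) at or below a given mean RPKM over the 8 libraries (horizontal log axis), 1 line per subfamily. The L1Md_Gf line, with a median of 1.31 RPKM, runs beside L1Md_A and L1Md_T and to the right of the F subfamilies, and the dotted line marks the level of 0.1 RPKM used as a filter in the tests.

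The order was the same in each library as far as L1Md_Gf was concerned. Its mean RPKM per copy ranged from 0.763 in TKO DAXX-knockout 2i to 2.80 in TKO regular. The ranges of the F subfamilies were 0.0591 to 0.206 for L1Md_F, 0.0560 to 0.149 for L1Md_F2 and 0.0801 to 0.229 for L1Md_F3, so none of them overlapped that of L1Md_Gf. Within a library, the mean L1Md_Gf copy had between 12.7 and 18.3 times the RPKM of the mean F copy. The order among the F subfamilies depended on the summary. By the mean, L1Md_F2 was lowest in 8 of 8 libraries and L1Md_F3 was above L1Md_F in 6. By the median copy, L1Md_F was lowest and L1Md_F3 highest of the F subfamilies in 8 of 8. The ranges of L1Md_F and L1Md_F2 over libraries overlapped by both summaries, as did those of L1Md_F2 and L1Md_F3.

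Reads were spread over many L1Md_Gf copies and were more concentrated in L1Md_F. The 10 copies with the most reads held 17.3% of L1Md_Gf reads, 28.1% of L1Md_F reads, 8.26% of L1Md_F2 reads and 11.2% of L1Md_F3 reads. The copies that together held 50% of the reads were 27.4% of L1Md_Gf copies but 8.99% of L1Md_F, 9.28% of L1Md_F2 and 15.7% of L1Md_F3 copies. How the counts treat reads that match several copies is not given in the sources used here. Copies of a young subfamily are nearly identical, so the level of a single L1Md_Gf copy may contain reads of others.

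Longer L1Md_Gf copies had more reads per kilobase up to 6500 bp. The median RPKM was 0.743 among the 46 copies of over 5000 to 5250 bp, 1.39 among 33 of up to 5500 bp, 2.06 among 32 of up to 6000 bp and 2.28 among 10 of up to 6500 bp. The 3 longer copies had a median of 2.15 RPKM. Across L1Md_Gf copies the Spearman correlation of length and level was 0.43 (n = 124), a description over copies that share libraries and reads. It was -0.07 in L1Md_F, -0.04 in L1Md_F2 and -0.02 in L1Md_F3, and 0.23 in both L1Md_A and L1Md_T. L1Md_Gf copies were mostly short of full length, with a median of 5412 bp and 13 of 124 at 6000 bp or more, while 1510 of 3673 L1Md_F2 and 303 of 720 L1Md_F3 copies were that long. L1Md_F copies were shorter still, with a median of 5253 bp and 4 of 267 at that length.

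The genomic surroundings of the 4 subfamilies were much alike by the share on the X chromosome and by nearby LINE1 copies. The X chromosome held 12.9% of L1Md_Gf, 10.1% of L1Md_F, 13.0% of L1Md_F2 and 9.86% of L1Md_F3 copies, against 11.5% of all listed LINE1 copies. Another listed LINE1 copy lay within 10 kb of 26.6% of L1Md_Gf, 26.6% of L1Md_F, 22.2% of L1Md_F2 and 20.7% of L1Md_F3 copies. The authors' assembled transcripts rarely covered them, and between 6 and 10 L1Md_Gf copies were overlapped by an assembled locus in a library. That was 4.84% to 8.06% of L1Md_Gf copies, against 2.25% to 3.75% in L1Md_F, 3.24% to 4.87% in L1Md_F2 and 3.75% to 6.25% in L1Md_F3. In L1Md_T it was 5.70% to 7.75%. Copies that lay inside a longer assembled locus in at least 1 library had a higher median level than the rest. In L1Md_F2 the 205 such copies had a median of 0.157 RPKM, against 0.0292 RPKM in the other 3468. In L1Md_F3 it was 0.208 RPKM in 49 copies against 0.0758 RPKM, and in L1Md_F 0.0532 RPKM in 13 copies against 0.0229 RPKM. In L1Md_Gf it was 2.11 RPKM in 12 copies against 1.29 RPKM. At the 90th percentile the order did not hold for L1Md_F, at 0.134 RPKM inside such a locus and 0.460 RPKM outside, and L1Md_Gf was at 2.89 and 2.83 RPKM. Whether reads of a surrounding transcript contributed to these levels was not tested.

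Summed over its copies, each subfamily was highest in TKO regular and lowest in TKO DAXX-knockout 2i. L1Md_Gf had 529 RPM in TKO DAXX-knockout 2i against 1203 RPM in TKO 2i, and 886 RPM in TKO DAXX-knockout regular and 1939 RPM in TKO regular. In the J1 lines L1Md_Gf had 1379 RPM in J1 DAXX-knockout 2i and 773 RPM in J1 2i, and 831 RPM in J1 DAXX-knockout regular against 814 RPM in J1 regular. The J1 DAXX-knockout 2i library was therefore the high one among the J1 libraries. L1Md_F2, with the most copies, had 1175 RPM in TKO DAXX-knockout 2i, 2226 RPM in TKO 2i, 1674 RPM in TKO DAXX-knockout regular and 3108 RPM in TKO regular. It had 2102 RPM in J1 DAXX-knockout 2i, 1467 RPM in J1 2i, and 1764 RPM for J1 DAXX-knockout regular beside 1659 RPM for J1 regular. The order of the libraries at both ends was that of L1Md_Gf, over a narrower range.

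L1Md_F had 83.8 RPM in TKO DAXX-knockout 2i, 209 RPM in TKO 2i, 139 RPM in TKO DAXX-knockout regular and 293 RPM in TKO regular. In the J1 lines it had 206 RPM in J1 DAXX-knockout 2i, 139 RPM in J1 2i, and 182 RPM for J1 DAXX-knockout regular beside 159 RPM for J1 regular. Both J1 DAXX-knockout libraries were thus above their intact partners in L1Md_F. L1Md_F3 had 329 RPM in TKO DAXX-knockout 2i, 698 RPM in TKO 2i, 510 RPM in TKO DAXX-knockout regular and 942 RPM in TKO regular. It had 551 RPM in J1 DAXX-knockout 2i, 426 RPM in J1 2i, and 499.6 RPM for J1 DAXX-knockout regular beside 518 RPM for J1 regular. The J1 libraries of L1Md_F3 stayed closer together than those of L1Md_Gf.

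**Figure D2:**
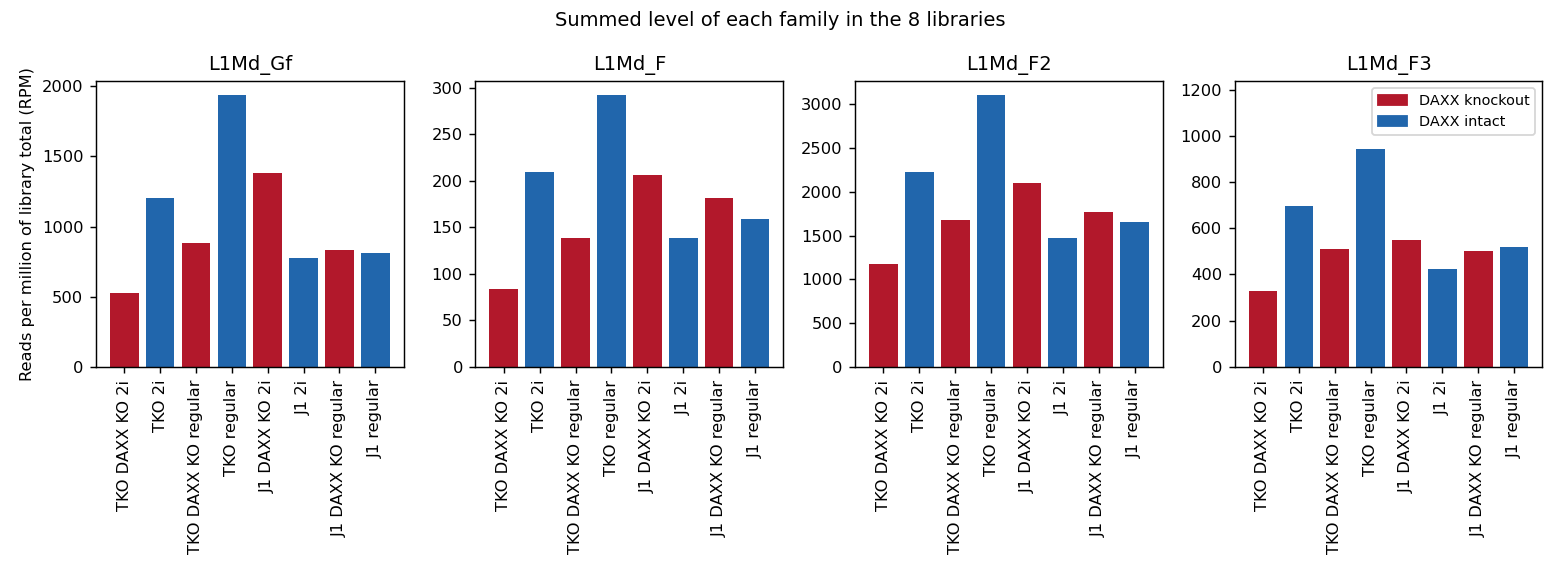
Summed reads-per-million of library total (RPM, vertical axes from 0, a scale per panel) of the 4 subfamilies, 1 bar per library, with DAXX-knockout libraries in red and intact ones in blue. In each panel TKO regular is the highest bar and TKO DAXX-knockout 2i the lowest, at 1939 and 529 RPM for L1Md_Gf.

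The balance of L1Md_Gf against the F subfamilies, a ratio within a library that does not depend on the scaling between libraries, differed little by factor on average. For 100 reads in the F subfamilies, L1Md_Gf had 33.3 reads in TKO DAXX-knockout 2i, 38.4 in TKO 2i, 38.2 in TKO DAXX-knockout regular and 44.7 in TKO regular. It had 48.2 in J1 DAXX-knockout 2i, 38.1 in J1 2i, and 34.0 for J1 DAXX-knockout regular beside 34.8 for J1 regular. J1 DAXX-knockout 2i was the highest library in this ratio, and the groups overlapped for each factor. On the log2 scale the ratio averaged -1.40 ± 0.25 with DAXX knocked out and -1.36 ± 0.15 with DAXX intact (SD, n = 4 each), with an exact two-sided permutation p of 0.8. It averaged -1.38 ± 0.17 in TKO and -1.38 ± 0.23 in J1 (exact permutation p of 1, n = 4 each). It averaged -1.35 ± 0.22 in 2i and -1.41 ± 0.18 in regular medium (exact permutation p of 0.714, n = 4 each). All 3 p-values were 1 after Benjamini-Hochberg adjustment, and 0.0286 is the smallest p that 4 against 4 libraries allow. The difference between DAXX-knockout and intact libraries was -0.031 on this scale, beside an SD of 0.26 over the 4 pairs. It lay below 0 in 3 of 4 pairs and was -0.15 without J1 DAXX-knockout 2i. Single pairs differed more, in both directions. From J1 to TKO they ran from -0.53 to 0.36 (SD of 0.38), and from regular medium to 2i from -0.22 to 0.50 (SD of 0.34).

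Against L1Md_T the share of L1Md_Gf was nearly fixed, at 2.04 to 2.31 reads per 100 L1Md_T reads over the 8 libraries. Per copy, L1Md_Gf had 0.890 to 1.00 times the mean RPKM of L1Md_T and 0.690 to 1.39 times that of L1Md_A. Over the 8 libraries, whose values share the library total, the Pearson correlation of log2 RPM of L1Md_Gf was 0.994 with L1Md_T, 0.978 with L1Md_F2, 0.942 with L1Md_F, 0.936 with L1Md_F3 and 0.869 with L1Md_A. These are descriptions of 8 libraries. The profile of L1Md_F3 was nearer to L1Md_A, at 0.979.

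**Figure D3:**
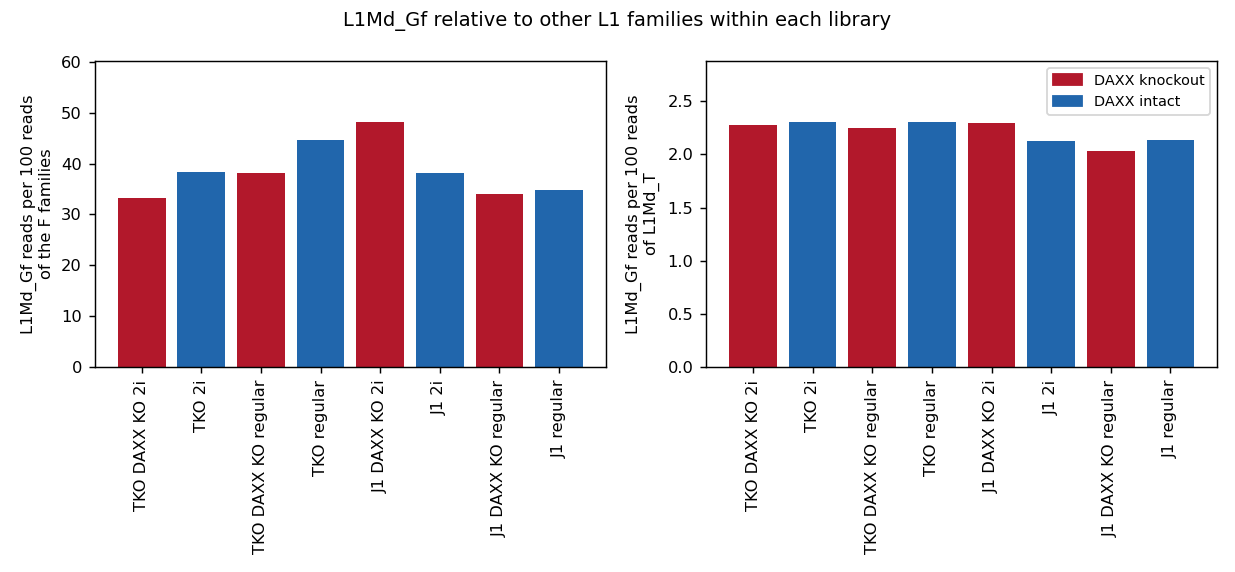
L1Md_Gf reads per 100 reads of the F subfamilies together (left) and per 100 reads of L1Md_T (right) in each library, on axes from 0, with DAXX-knockout libraries in red and intact ones in blue. The left bars range from 33.3 to 48.2 and the right bars from 2.04 to 2.31.

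Single copies were compared next, beginning with the 3 of highest mean RPKM in each subfamily. Positions are those of the table (mm9), and the files do not state whether they count from 0 or 1. The highest L1Md_Gf copy lay on chromosome 6 from 59149638 to 59155075. It had 1.88 RPKM in TKO DAXX-knockout 2i, 5.01 in TKO 2i, 3.42 in TKO DAXX-knockout regular, 7.61 in TKO regular, 5.35 in J1 DAXX-knockout 2i, 2.69 in J1 2i, and 2.69 for J1 DAXX-knockout regular beside 2.86 for J1 regular. As in its whole subfamily, TKO regular was the highest library and TKO DAXX-knockout 2i the lowest. The other two L1Md_Gf copies, on chromosome 6 at 93326141 and chromosome 9 at 25037791, averaged 3.88 and 3.59 RPKM and correlated with the rest of L1Md_Gf at r of 0.984 and 0.990 over the 8 libraries.

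The 2 highest L1Md_F2 copies differed from each other. The first, on chromosome 1 from 46127904 to 46134327, had 5.09 RPKM in TKO DAXX-knockout 2i, 3.25 in TKO 2i, 5.71 in TKO DAXX-knockout regular, 2.70 in TKO regular, 3.18 in J1 DAXX-knockout 2i, 1.64 in J1 2i, and 5.04 for J1 DAXX-knockout regular beside 3.59 for J1 regular. It was higher in the DAXX-knockout library of each of the 4 pairs, at a log2 change of 0.76 that did not pass in edgeR (adjusted p of 0.650). Its correlation with L1Md_Gf was -0.34. The second, on chromosome 15 from 33489981 to 33495196, followed L1Md_Gf at 0.992, with 1.57 RPKM for TKO DAXX-knockout 2i and 6.54 RPKM for TKO regular as its lowest and highest values. The third, on chromosome 4 at 146874223, averaged 3.32 RPKM and followed L1Md_Gf at 0.19.

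The highest L1Md_F copy, on chromosome 8 from 40279479 to 40284749, was the one L1Md_F copy above 1 RPKM and was highest in a J1 library. It had 0.84 RPKM in TKO DAXX-knockout 2i, 1.52 in TKO 2i, 1.16 in TKO DAXX-knockout regular, 2.91 in TKO regular, 3.56 in J1 DAXX-knockout 2i, 2.10 in J1 2i, and 4.10 for J1 DAXX-knockout regular beside 2.76 for J1 regular. The DAXX-knockout library was the lower one in both TKO pairs and the higher one in both J1 pairs. The next L1Md_F copies, on chromosome 4 at 113086636 and chromosome 10 at 3703123, averaged 0.973 and 0.893 RPKM.

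The highest L1Md_F3 copy, on chromosome 3 from 22177863 to 22183999, varied most among the 12. It had 0.66 RPKM in TKO DAXX-knockout 2i, 9 in TKO 2i, 0.79 in TKO DAXX-knockout regular, 3.66 in TKO regular, 0.52 in J1 DAXX-knockout 2i, 1.11 in J1 2i, and 0.34 for J1 DAXX-knockout regular beside 0.57 for J1 regular. Both TKO libraries with intact DAXX stood above the other 6. The next L1Md_F3 copies, on chromosome 1 at 107430019 and chromosome 12 at 36529022, averaged 1.39 and 1.31 RPKM and followed L1Md_Gf at 0.882 and 0.905. That on chromosome 1 lay inside a longer assembled locus in 8 of 8 libraries.

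**Figure D4:**
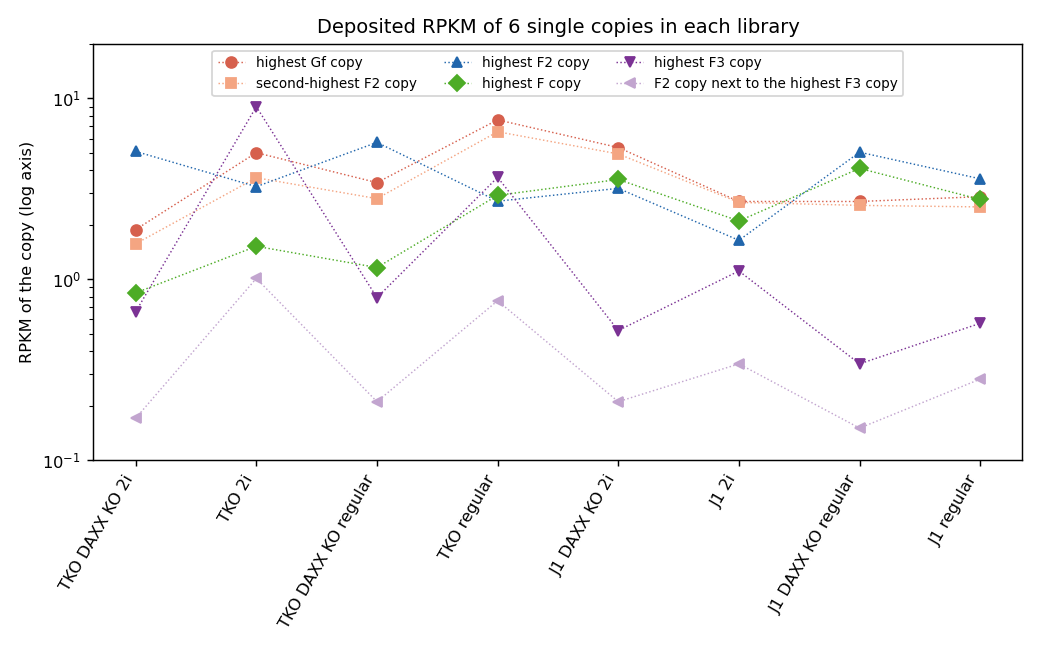
Deposited RPKM (vertical log axis) of 6 single copies in each of the 8 libraries (horizontal axis), with 1 symbol and colour per copy and dotted lines joining a copy's values as a guide. The second-highest L1Md_F2 copy tracks the highest L1Md_Gf copy, while the highest L1Md_F3 copy peaks at 9 RPKM in TKO 2i together with the L1Md_F2 copy next to it.

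Most L1Md_Gf copies followed the profile of their own subfamily, and fewer F copies followed that of L1Md_Gf. Among copies with a mean of at least 0.5 RPKM, 88.8% of 98 L1Md_Gf copies correlated with the rest of L1Md_Gf at 0.9 or more over the 8 libraries. The share at that correlation with L1Md_Gf was 55% of 20 L1Md_F, 30.7% of 75 L1Md_F2 and 21.7% of 23 L1Md_F3 copies. It was 78.1% of 4192 L1Md_T and 19.1% of 2740 L1Md_A copies. How closely F copies followed their own subfamilies was not tested. Shared libraries and possibly shared reads make these copies dependent on one another, so the shares are descriptions.

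The comparison of DAXX-knockout with intact lines asked whether these transcripts differ when DAXX is lost. All 4 subfamilies were lower in the knockout in both TKO pairs, and L1Md_Gf, L1Md_F and L1Md_F2 were higher in both J1 pairs. For L1Md_Gf the ratio of knockout to intact RPM was 0.440 in TKO 2i and 0.457 in TKO regular, against 1.78 in J1 2i and 1.02 in J1 regular. For L1Md_F it was 0.401 and 0.474 in TKO and 1.49 and 1.14 in J1, in the same order of media. For L1Md_F2 it was 0.528 and 0.539 in TKO and 1.43 and 1.06 in J1. L1Md_F3 had ratios of 0.471 and 0.541 in TKO and of 1.29 and 0.964 in J1, so it was lower in 3 of 4 pairs.

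Over the 4 pairs the log2 ratio was -0.36 ± 0.98 for L1Md_Gf, -0.41 ± 0.93 for L1Md_F, -0.30 ± 0.72 for L1Md_F2 and -0.41 ± 0.69 for L1Md_F3 (SD, n = 4 pairs). The spread between pairs exceeded each mean. The fitted log2 changes were -0.33, -0.39, -0.29 and -0.40 in edgeR's quasi-likelihood test of subfamily sums, with adjusted p between 0.646 and 0.664. None of the 4 passed in edgeR, where 0% of the 44 tested families did, and none was at an unadjusted p under 0.05. DESeq2 and limma also called 0 of the 4. The median log2 change over the 44 families was -0.32. L1Md_Gf went to -0.80 without J1 DAXX-knockout 2i and to 0.00099 without TKO regular. Under scaling to the LINE1 total the 4 changes were positive, between 0.062 and 0.17.

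**Figure D5:**
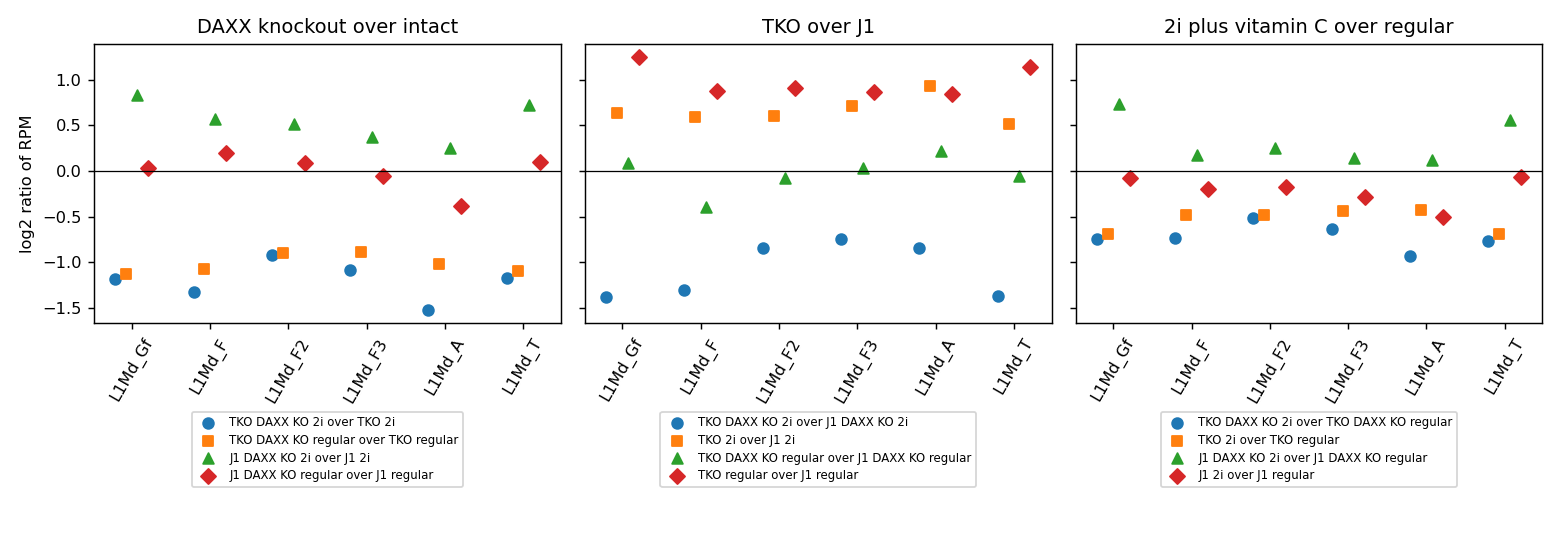
Log2 ratio of RPM (vertical axis) within each of the 4 pairs of libraries that differ in 1 factor, for the 4 subfamilies and for L1Md_A and L1Md_T, with a panel per factor and a symbol per pair. In the DAXX panel the TKO pairs of the 4 subfamilies lie near -1. Their J1 pairs lie near or above 0, from 0.03 to 0.83 for L1Md_Gf. L1Md_A is at -1.52 in the TKO 2i pair and at -0.38 in the J1 regular pair.

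A single copy was tested where its mean reached 0.1 RPKM, which 113 L1Md_Gf, 75 L1Md_F, 939 L1Md_F2 and 313 L1Md_F3 copies did, 1440 of the 4784. In edgeR 3 of them were lower with DAXX knockout and 0 higher, against 0.0618% and 6.70% of all 11322 tested copies of the table (6.77% in either direction). At an unadjusted p under 0.05 there were 27. DESeq2 called 20 higher and 3 lower, against 992 and 5 of all tested copies, and limma 0 and 3, against 750 and 7. The split was 7 and 3 with TMM, 10 and 3 with median-of-ratios scaling and 9 and 3 with LINE1 scaling. Over all tested copies these were 903 and 19, 910 and 11, and 906 and 11. Without J1 DAXX-knockout 2i the split was 6 higher and 214 lower of 1412 members, against 824 and 3428 of all 11292 tested copies. Without any other single library between 0 and 3 member copies were called. Among these fits, more than 750 of all tested copies were still higher without TKO regular or without TKO DAXX-knockout 2i. In each of the rest, fewer than 20 of all tested copies were called in either direction.

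The median log2 change among tested copies was -0.33 for L1Md_Gf, -0.39 for L1Md_F, -0.31 for L1Md_F2 and -0.40 for L1Md_F3, beside -0.45 over all tested copies. The 3 lower copies were the highest L1Md_F3 copy and 2 of L1Md_F2. The L1Md_F3 copy on chromosome 3 at 22177863 fell by 1.93 on the log2 scale (edgeR adjusted p of 0.0214), in 4 of 4 pairs. The L1Md_F2 copy on chromosome 3 from 22169604 to 22176174 ended 1689 bp before it. This neighbour had 0.17 RPKM in TKO DAXX-knockout 2i, 1.01 in TKO 2i, 0.21 in TKO DAXX-knockout regular, 0.76 in TKO regular, 0.21 in J1 DAXX-knockout 2i, 0.34 in J1 2i, and 0.15 for J1 DAXX-knockout regular beside 0.28 for J1 regular. The knockout was the lower library of each pair, at a log2 change of -1.49 (edgeR adjusted p of 0.0375). The assembled transcripts held a locus within the L1Md_F3 copy in 6 libraries and within its neighbour in 2. Whether one transcript spans both was not tested.

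The third copy, L1Md_F2 on chromosome 13 from 107282219 to 107288580, had 1 read in TKO DAXX-knockout 2i, 65 in TKO 2i, 17 in TKO DAXX-knockout regular, 265 in TKO regular, 44 in J1 DAXX-knockout 2i, 46 in J1 2i, and 31 for J1 DAXX-knockout regular beside 55 for J1 regular. Its log2 change was -2.19 (edgeR adjusted p of 0.0172). These calls rested on most libraries being present, as did the number called over all tested copies. The calls of the L1Md_F3 copy and its neighbour held under TMM, median-of-ratios and LINE1 scaling, DESeq2 and limma. Both were lost with the other covariates. The L1Md_F3 copy passed without TKO regular and without J1 DAXX-knockout 2i but not without any other library, where its log2 change ranged down to -1.43. The L1Md_F2 neighbour passed only without J1 DAXX-knockout 2i. So did the copy on chromosome 13, whose call was also lost under TMM, median-of-ratios and LINE1 scaling. That copy reached the filter of 0.1 RPKM only through TKO regular, where it was highest, so it could enter the test only with a high value in an intact library.

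The comparison of TKO with J1 asked how the transcripts differ when the DNMTs are lost. With DAXX intact the 4 subfamilies were higher in TKO in both media, and with DAXX knocked out each was lower in 2i and between 0.764 and 1.07 times the J1 level in regular medium. The TKO to J1 ratio of L1Md_Gf was 1.56 in 2i and 2.38 in regular medium with DAXX intact. With DAXX knocked out it was 0.383 in 2i and 1.07 in regular medium. For L1Md_F the same ratios were 1.51 and 1.84 with DAXX intact and 0.407 and 0.764 with DAXX knocked out. L1Md_F2 had 1.52 and 1.87 with DAXX intact, and 0.559 and 0.949 with DAXX knocked out. L1Md_F3 had 1.64 and 1.82 with DAXX intact, and 0.597 and 1.02 with DAXX knocked out. The fitted log2 changes were 0.15 for L1Md_Gf, -0.05 for L1Md_F, 0.15 for L1Md_F2 and 0.21 for L1Md_F3, with an adjusted p of 0.970 for each in edgeR.

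Over the 44 tested families the median fitted log2 change from J1 to TKO was 0.18, with 38 above 0. None of the 4 subfamilies passed in edgeR for TKO against J1, while 11.4% of the 44 tested families did. None was at an unadjusted p under 0.05, and DESeq2 and limma called 0 of them. L1Md_Gf, L1Md_F2 and L1Md_F3 were below 0 under TMM, at -0.27, -0.27 and -0.20, and also under median-of-ratios scaling. L1Md_Gf was at 0.56 without J1 DAXX-knockout 2i and at -0.16 without J1 regular. Of 1440 tested copies, 2 were higher in TKO and 0 lower in edgeR, against 0.583% and 0.0265% of all tested copies, with 26 at an unadjusted p under 0.05. DESeq2 called 9 higher and 14 lower, against 92 and 369 of all tested copies, and limma 4 and 1, against 71 and 3. Each of the 3 other scalings gave 5 higher and 8 lower. All tested copies turned to mostly lower too. TMM called 60 higher and 267 lower of them, median-of-ratios scaling 63 and 296, and LINE1 scaling 62 and 286. Leaving out 1 library gave 16 calls without J1 DAXX-knockout 2i, 6 without TKO DAXX-knockout 2i, 1 without TKO DAXX-knockout regular or J1 regular, 0 when J1 DAXX-knockout regular was left out and 2 or 3 otherwise. Of all tested copies, these fits called from 45 higher (J1 DAXX-knockout regular left out) to 113 (J1 DAXX-knockout 2i left out), and 0 to 5 lower.

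Both higher copies were of L1Md_F2 on the X chromosome. The first, from 54728880 to 54735220, had 0.95 RPKM in TKO DAXX-knockout 2i, 0.59 in TKO 2i, 0.66 in TKO DAXX-knockout regular and 0.36 in TKO regular. In the J1 lines it had 0.26 RPKM in J1 DAXX-knockout 2i, 0.21 in J1 2i, and 0.08 for J1 DAXX-knockout regular beside 0.04 for J1 regular. The lowest TKO library was above the highest J1 library, at a log2 change of 2.35 (edgeR adjusted p of 0.000620). This copy lay inside a longer assembled locus in 8 of 8 libraries. It did not pass without TKO DAXX-knockout regular, without J1 regular or J1 DAXX-knockout regular. The second, from 151414042 to 151419078, was at 0.13 to 1.10 RPKM in the TKO libraries and at 0.04 to 0.09 RPKM in the J1 libraries. Its log2 change was 2.39 (edgeR adjusted p of 0.00344). It was 1.68 and not called without TKO DAXX-knockout 2i, nor called without J1 2i or J1 DAXX-knockout regular, and it was called under none of the 3 other scalings.

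The comparison of 2i with regular medium asked what the ground-state medium does to the same lines. The 4 subfamilies were lower in 2i in 3 of 4 pairs and higher in the fourth, that of J1 DAXX-knockout. L1Md_A and L1Md_T had the same split of pairs. Over the 44 tested families the median fitted log2 change was -0.21, with 36 below 0. The 2i to regular ratio of L1Md_Gf was 0.597 in TKO DAXX-knockout, 0.620 in TKO, 1.66 in J1 DAXX-knockout and 0.950 in J1. That of L1Md_F2 was 0.702, 0.716, 1.19 and 0.884 in the same lines. L1Md_F ranged from 0.604 to 1.13 and L1Md_F3 from 0.645 to 1.10. The fitted log2 changes were -0.14 for L1Md_Gf, -0.27 for L1Md_F, -0.21 for L1Md_F2 and -0.27 for L1Md_F3, with an adjusted p of 0.846 for each in edgeR. None of the 4 passed in edgeR, where 15.9% of the 44 tested families did (4.55% higher and 11.4% lower), none was at an unadjusted p under 0.05, and DESeq2 and limma called 0. L1Md_Gf was at -0.65 without J1 DAXX-knockout 2i and at 0.22 without TKO regular, and it was above 0 under each of the 3 other scalings.

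Of 1440 tested copies, 5 were higher in 2i and 1 lower in edgeR, against 0.495% and 4.72% of all tested copies (5.21% in either direction). DESeq2 called 18 and 5, against 849 and 168 of all tested copies, and limma 3 and 4, against 54 and 645. The split was 1 and 0 under TMM, 10 and 2 under median-of-ratios scaling and 10 and 3 with the LINE1 total. Over all tested copies these were 62 and 8, 627 and 66, and 573 and 65. Omitting J1 DAXX-knockout 2i gave 4 higher and 33 lower members, against 61 and 740 of all tested copies. Without J1 DAXX-knockout regular no member was called, against 17 higher and 1 lower of all tested copies. There were 10 member calls without TKO DAXX-knockout 2i, 1 without TKO 2i, 3 without J1 2i and 2 without J1 regular. In that order, all tested copies split into 180 higher and 608 lower, 18 and 11, 51 and 5, and 27 and 40. Without TKO DAXX-knockout regular 5 members were called, against 47 and 583, and without TKO regular 4, against 51 and 23. The lower copy, L1Md_F3 on chromosome 1 from 142619149 to 142624498, had 0.02 RPKM in TKO DAXX-knockout 2i against 0.09 in TKO DAXX-knockout regular, 0.11 in TKO 2i and 1.21 in TKO regular. In the J1 lines it had 0.11 RPKM in J1 DAXX-knockout 2i and 0.55 in J1 DAXX-knockout regular, 0.07 in J1 2i and 0.71 in J1 regular. The 2i library was the lower one of each pair, at a log2 change of -2.86 (edgeR adjusted p of 3.35e-05). It passed in 14 of 16 alternatives, the exceptions being TMM and the fit without J1 DAXX-knockout regular.

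Among the copies higher in 2i, the L1Md_F copy on chromosome 11 from 16342795 to 16348262 had the largest change. It had 32 reads in TKO DAXX-knockout 2i against 9 in TKO DAXX-knockout regular, 97 in TKO 2i and 61 in TKO regular, 135 in J1 DAXX-knockout 2i and 10 for J1 DAXX-knockout regular, and 67 in J1 2i and 3 in J1 regular. Its log2 change was 2.43 (edgeR adjusted p of 0.00684), and it was not called without either J1 library in regular medium. Without TKO 2i or J1 DAXX-knockout 2i it fell below the filter of 0.1 RPKM, so it entered the test through the 2i libraries, in which it was high. The L1Md_F2 copy on chromosome 3 from 55001775 to 55008150 had a log2 change of 1.99 (edgeR adjusted p of 0.00830). It had 0.92 RPKM in TKO DAXX-knockout 2i against 0.23 in TKO DAXX-knockout regular, 0.61 in TKO 2i and 0.21 in TKO regular, 0.29 in J1 DAXX-knockout 2i and 0.02 for J1 DAXX-knockout regular, and 0.49 in J1 2i and 0.17 in J1 regular. This copy lay inside a longer assembled locus in 8 of 8 libraries, and it was not called without TKO 2i, J1 2i or J1 DAXX-knockout regular, nor under TMM, median-of-ratios or LINE1 scaling. A further L1Md_F2 copy, on chromosome 10 at 100267310, had a log2 change of 1.72 (edgeR adjusted p of 0.0362). It was called without TKO DAXX-knockout 2i and without TKO regular, and not without any other library.

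The effect of DAXX loss was also fitted within each DNMT background, as the study's title asks about repeats in the absence of DNA methylation. In J1 the fitted log2 changes were 0.50 for L1Md_Gf, 0.40 for L1Md_F, 0.32 for L1Md_F2 and 0.18 for L1Md_F3, with approximate standard errors of 0.34 to 0.43. None passed in edgeR (adjusted p of 0.853 to 0.902), where 0% of the 44 families did, none was at an unadjusted p under 0.05, and DESeq2 and limma called 0. The sign of L1Md_Gf rested on 1 library, since its change was -0.20 without J1 DAXX-knockout 2i, where that of L1Md_F2 was -0.022 and that of L1Md_F3 -0.14. In edgeR 15 of 1440 copies were higher and 1 lower, against 7.81% and 0.0177% of all tested copies (7.83% in either direction). No copy was called under TMM, 6 higher and 1 lower under median-of-ratios scaling, and 2 and 1 under LINE1 scaling. DESeq2 called 12 and 4, and limma 20 and 1. Without J1 2i or without J1 regular no copy was called, and without J1 DAXX-knockout regular 217 were higher and 2 lower.

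The 3 largest rises in J1 were of L1Md_F2 copies. The copy on chromosome 10 from 33043134 to 33048942 had 0.40 RPKM in J1 DAXX-knockout 2i and 0.07 in J1 2i, and 1.03 in J1 DAXX-knockout regular against 0.29 in J1 regular. Its log2 change was 2.14 (edgeR adjusted p of 0.000104), and it was not called without J1 2i or J1 regular or under TMM or LINE1 scaling. The copy on chromosome 16 from 53134164 to 53139294 had 0.43 RPKM in J1 DAXX-knockout 2i and 0.08 in J1 2i, and 0.37 in J1 DAXX-knockout regular against 0.14 in J1 regular. Its log2 change was 2.16 (edgeR adjusted p of 0.000746), but 0.93 and not called without J1 DAXX-knockout 2i, nor called without either intact J1 library, nor under TMM, median-of-ratios or LINE1 scaling. The copy on chromosome 9 at 14214243 had 90 reads in J1 DAXX-knockout 2i and 14 in J1 2i, and 85 in J1 DAXX-knockout regular against 18 in J1 regular. Its log2 change was 2.22 (edgeR adjusted p of 0.00518), lost without either intact J1 library and under TMM and LINE1 scaling. It fell below the filter without either J1 DAXX-knockout library, so it entered the test through libraries in which it was high. The 1 lower copy was the L1Md_F2 copy on chromosome 3 at 55001775 that was higher in 2i, with a log2 change of -1.52 (edgeR adjusted p of 0.0114). It was -0.85 and not called without J1 DAXX-knockout regular, and not called without either intact J1 library.

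In TKO the fitted log2 changes with DAXX knockout were -1.15 for L1Md_Gf, -1.19 for L1Md_F, -0.91 for L1Md_F2 and -0.98 for L1Md_F3, or folds of 0.450, 0.440, 0.534 and 0.508. Each was at an unadjusted p under 0.05, and none passed in edgeR after adjustment, at adjusted p of 0.0753, 0.0691, 0.0763 and 0.0747. Of the 44 tested families, 2.27% passed as lower. DESeq2 called 1 of the 4, L1Md_F, as lower, against 12 higher and 3 lower of the 44 families, and limma 0. These values lay close to the rest of the table, whose median log2 change was -0.93 over families and -1.18 over tested copies. TMM moved the median over families to -0.11, with L1Md_Gf at -0.32, L1Md_F at -0.37, L1Md_F2 at -0.086 and L1Md_F3 at -0.17. LINE1 scaling moved it to 0.25, with L1Md_Gf at 0.015, L1Md_F at -0.021, L1Md_F2 at 0.27 and L1Md_F3 at 0.19. L1Md_Gf, L1Md_F and L1Md_F3 lay below the median of families and L1Md_F2 above it under these 3 scalings. Without J1 DAXX-knockout 2i, or without J1 DAXX-knockout regular, all 4 passed at nearly the same log2 changes. In each of these 2 fits, 22 of the 44 families passed as lower and 2 as higher. Without TKO DAXX-knockout regular, the changes were -1.56 for L1Md_Gf, -1.49 for L1Md_F, -1.10 for L1Md_F2 and -1.21 for L1Md_F3. The median over families was then -0.87.

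In TKO, edgeR called 650 of 1440 copies lower with DAXX knockout and 1 higher, against 56.5% lower and 3.42% higher among all tested copies (59.9% in either direction). They made up 63 of 113 L1Md_Gf, 53 of 75 L1Md_F, 399 of 939 L1Md_F2 and 135 of 313 L1Md_F3 copies, each with the same sign in both pairs. The 4 subfamilies together were called lower at 45.1%, below the share over all tested copies. The split depended on the scaling, at 14 and 5 copies with TMM, 22 and 7 with median-of-ratios scaling and 24 and 6 with LINE1 scaling. Over all tested copies these were 805 and 12, 924 and 13, and 923 and 11. DESeq2 called 42 and 9, against 1075 and 17 of all tested copies, and limma 3 and 752, against 572 and 7746. When a TKO library was left out, the median change over all tested copies ranged from -1.54 (TKO DAXX-knockout regular) to -0.88 (TKO DAXX-knockout 2i). Without J1 2i 14 members were lower and without J1 regular 12, against 23 and 17 of all tested copies. On omission of J1 DAXX-knockout 2i 959 of 1412 members were lower, against 9257 of 11292 tested copies. On that of J1 DAXX-knockout regular 968 of 1449 were, against 9169 of 11328.

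One L1Md_F copy, on chromosome 14 from 89206429 to 89211515, was called lower in TKO under each of 16 alternatives. It had 0.04 RPKM in TKO DAXX-knockout 2i against 0.65 in TKO 2i, and 0.04 in TKO DAXX-knockout regular and 0.90 in TKO regular. In reads these were 14 against 244, and 16 against 454. In J1 it had 0.51 RPKM in J1 DAXX-knockout 2i and 0.15 in J1 2i, and 0.42 in J1 DAXX-knockout regular against 0.44 in J1 regular. Both TKO DAXX-knockout libraries were below the other 6, of which J1 2i was the lowest. It fell by 4.28 on the log2 scale in TKO (edgeR adjusted p of 2.17e-12), and between -4.44 and -4.12 when a library was left out. No assembled locus overlapped it.

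The next largest falls in TKO were those of the L1Md_F2 copy on chromosome 13 at 107282219 and the L1Md_F3 copy on chromosome 1 at 142619149, both described above. Their log2 changes were -3.90 (edgeR adjusted p of 5.75e-06) and -3.12 (edgeR adjusted p of 9.64e-06). The L1Md_F3 call was lost without TKO regular, at -2.55, and both calls were lost under TMM. The 1 copy that was higher in TKO was the L1Md_F2 copy on chromosome 7 from 49782375 to 49788338. It had 1.14 RPKM in TKO DAXX-knockout 2i against 0.73 in TKO 2i, and 0.88 in TKO DAXX-knockout regular and 0.39 in TKO regular. Its log2 change of 1.00 (edgeR adjusted p of 0.0452) became -0.059 without TKO DAXX-knockout regular, and it was not called without either intact TKO library or either intact J1 library.

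The difference between the DAXX effects in TKO and in J1 was tested as an interaction. It was -1.66 on the log2 scale for L1Md_Gf, -1.59 for L1Md_F, -1.23 for L1Md_F2 and -1.15 for L1Md_F3, with approximate standard errors of 0.48 to 0.62. Each was at an unadjusted p under 0.05, and none passed in edgeR (adjusted p of 0.110 to 0.111), where 0% of the 44 families did. DESeq2 called 1 of the 4, L1Md_F, as negative, against 3 positive and 2 negative of the 44 families, and limma 0. The median over all families was -1.20. Without J1 DAXX-knockout regular the 4 were at -2.19, -1.89, -1.53 and -1.44 in the same order, and the median over families was -1.56. Without J1 DAXX-knockout 2i, L1Md_Gf was at -0.96. Under LINE1 scaling L1Md_F2 and L1Md_F3 were above 0, at 0.20 and 0.26, and under TMM at 0.0033 and 0.065.

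Among single copies the interaction was negative and past the threshold in 28 of 1440 in edgeR, and positive in 0, against 0.503% and 0% of all tested copies. These were 0 of 113 L1Md_Gf, 5 of 75 L1Md_F, 20 of 939 L1Md_F2 and 3 of 313 L1Md_F3 copies. At an unadjusted p under 0.05 there were 757, and limma called 25 negative, against 41 of all tested copies. No copy passed under the 3 other scalings, among members or all tested copies. DESeq2 called 6 positive and 1 negative, against 24 and 2 of all tested copies. The median difference over all tested copies was -1.41. With 1 library left out it ranged from -1.79 (J1 DAXX-knockout regular) to -0.90 (J1 DAXX-knockout 2i). The L1Md_F copy on chromosome 14 at 89206429 had the largest difference, -5.07 (edgeR adjusted p of 9.98e-10), called in each fit that left out 1 library and lost under the 3 other scalings.

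The L1Md_F2 copy on chromosome 16 from 73568125 to 73573388 had 7 reads in TKO DAXX-knockout 2i against 164 in TKO 2i, and 32 in TKO DAXX-knockout regular and 152 in TKO regular. In J1 it had 64 reads in J1 DAXX-knockout 2i and 13 in J1 2i, and 29 in J1 DAXX-knockout regular against 16 in J1 regular. Its difference was -4.26 (edgeR adjusted p of 0.00230), not called without J1 2i or J1 regular, and without TKO 2i, a library in which it was high, it fell below the filter. The L1Md_F2 copy on chromosome 17 from 92158729 to 92164832 had 11 reads in TKO DAXX-knockout 2i against 134 in TKO 2i, and 23 in TKO DAXX-knockout regular and 183 in TKO regular. In J1 it had 106 reads in J1 DAXX-knockout 2i and 74 in J1 2i, and 145 in J1 DAXX-knockout regular against 33 in J1 regular. Its difference was -3.97 (edgeR adjusted p of 0.000501), not called without J1 regular.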

How the data were processed

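Cytoplasmic, oligo-dT selected RNA of 8 mouse embryonic stem cell cultures was sequenced as strand-marked libraries (dUTP second strand), per the labels' protocols, with 1 library per group. The authors deposited, per repeat copy, read counts and RPKM (reads-per-kilobase-per-million), and, per the file headers, FPKM of assembled transcripts by position. Per the submitters' processing notes, Bowtie2 2.2.4, TopHat, Cufflinks and Cuffdiff were used with mm9. The treatment of reads matching several copies is not given in the sources used here.

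Library totals were recovered from deposited counts and RPKM. Their range, 67.4 to 99.1 M reads, gives a floor of 3 reads of 0.0303 to 0.0445 RPM, for counting error only. Counts were tested with edgeR 4.0.16 (R 4.3.3, quasi-likelihood, Benjamini-Hochberg, adjusted p under 0.05), scaled by library total. Family sums had a mean of at least 1 RPM (44 families) and copies of at least 0.1 RPKM (11322). DAXX, DNMT and medium were additive terms, and a second fit held the DAXX by DNMT interaction. Alternatives were TMM, median-of-ratios and LINE1-total scaling, DESeq2 1.42.0, limma 3.58.1 (log2 of RPM or RPKM plus 0.1, or plus 1), other filters and covariates, and the omission of each library. Approximate standard errors are the change over the root of its F statistic. The ratio of L1Md_Gf to the F subfamilies was tested by exact permutation (scipy 1.17.1). Scripts were tested on simulated data. The p-values measure spread between these libraries only.

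Named are the 3 copies of highest mean RPKM per subfamily and, per comparison, up to 3 called copies each way with the largest change among those of the same sign in each pair. Members and lists were chosen with earlier results of these data known. Assembled loci were overlapped with copies by position (any overlap). A copy lay inside a longer locus if that locus spanned it and was over 2 times as long, and a locus lay within a copy if it ended no further than 1 kb outside it at either side. No sequence was read, since no mm9 genome was used here.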

Additional observations from a re-analysis of the deposited data

Results flagged for a closer look

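The DAXX effect went in opposite directions in the TKO and J1 lines for 3 subfamilies, with both TKO pairs lower and both J1 pairs higher in the knockout. The difference in log2 change, TKO minus J1, was -1.66 for L1Md_Gf, -1.59 for L1Md_F and -1.23 for L1Md_F2. The interaction term itself did not pass in edgeR (adjusted p of 0.110 for each). The J1 direction turned under TMM for L1Md_F (-0.012) and L1Md_F2 (-0.089), and without J1 DAXX-knockout 2i for L1Md_Gf (-0.20) and L1Md_F2 (-0.022). The TKO direction turned under LINE1 scaling for L1Md_Gf and L1Md_F2, and the interaction of L1Md_F2 was above 0 under TMM and LINE1 scaling. The interaction of L1Md_T, which is not among the 4 subfamilies, was -1.59. The split ran through the repeat families at large. Of the 44 tested families, 37 had a fitted rise in J1, 33 a fall in TKO and 41 a negative interaction, with a median of -1.20. The J1 regular pair contributed ratios of 1.02 for L1Md_Gf and 1.06 for L1Md_F2.

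The same term passed for single copies with the largest differences. It was -5.07 for the L1Md_F copy on chromosome 14 at 89206429, -4.26 for the L1Md_F2 copy on chromosome 16 at 73568125 and -3.97 for the L1Md_F2 copy on chromosome 17 at 92158729. None of these 3 passed under TMM, median-of-ratios or LINE1 scaling.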

How the results depend on the processing

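No block on replicate numbers was possible because each group had 1 library. The 4 library pairs of each factor were described by their values. The permutation test of the L1Md_Gf ratio compared 4 with 4 libraries and did not use the pairs. A sign-flip test within the pairs was also run on that ratio. It could not pass at 0.05, since 0.125 is the smallest p it allows. Fits that leave out a library rest on 3 or fewer residual degrees of freedom and on single libraries. Values below are log2 changes or numbers of members called, and the cause of each change was not tested beyond what the setting itself changes.

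Under DESeq2, signs turned for DAXX in L1Md_F2 (0.044), for DNMT in L1Md_Gf (-0.090), L1Md_F2 (-0.092) and L1Md_F3 (-0.023), for medium in L1Md_Gf (0.074) and L1Md_F2 (0.032), and for DAXX in J1 in L1Md_F3 (-0.035). The same 7 values came from median-of-ratios scaling. Under TMM they turned for DNMT in L1Md_Gf (-0.27), L1Md_F2 (-0.27) and L1Md_F3 (-0.20), for medium in L1Md_Gf (0.094) and L1Md_F2 (0.050), for DAXX in J1 in L1Md_F (-0.012), L1Md_F2 (-0.089) and L1Md_F3 (-0.23), and for the interaction in L1Md_F2 (0.0033) and L1Md_F3 (0.065). Under LINE1 scaling they turned for DAXX in L1Md_Gf (0.11), L1Md_F (0.066), L1Md_F2 (0.17) and L1Md_F3 (0.062), for medium in L1Md_Gf (0.11), L1Md_F2 (0.081) and L1Md_F3 (0.0075), for DAXX in J1 in L1Md_F3 (-0.068), for DAXX in TKO in L1Md_Gf (0.015), L1Md_F2 (0.27) and L1Md_F3 (0.19), and for the interaction in L1Md_F2 (0.20) and L1Md_F3 (0.26). The ratio of L1Md_Gf to the F subfamilies by median copies was -0.058 for DNMT and -0.043 for medium.

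Member copies called for DAXX, DNMT, medium, DAXX in J1, DAXX in TKO and the interaction numbered 3, 2, 6, 16, 651 and 28. Over all 11322 tested copies the numbers were 766, 69, 590, 886, 6779 and 57. In that order the members called were 23, 23, 23, 16, 51 and 7 by DESeq2 and 12, 13, 13, 3, 30 and 0 under LINE1 scaling. They were 10, 13, 1, 0, 19 and 0 under TMM, and 13, 13, 12, 7, 29 and 0 under median-of-ratios scaling. The matching numbers over all tested copies for DESeq2 and these scalings stand with each comparison in the Results. They were 22, 5, 21, 42, 422 and 112 without a filter, 1, 1, 0, 0, 1 and 0 with the stricter filter, and 0, 1, 31, 7, 9 and 2 with the other covariates. By limma they were 3, 5, 7, 21, 755 and 25, and with a pseudocount of 1 they were 5, 4, 7, 15, 675 and 1. DESeq2 called 1 subfamily for DAXX in TKO and 1 for the interaction, against 12 higher and 3 lower, and 3 and 2, of the 44 families. All tested copies without a filter split, as higher and lower, into 710 and 23, 79 and 7, 67 and 497, 913 and 9, 62 and 1493, and 2 and 169. With the stricter filter they split into 559 and 2, 47 and 1, 44 and 549, 627 and 0, 0 and 2, and 0 and 0. With the other covariates it was 1 and 0, 56 and 2, 115 and 704, 823 and 0, 0 and 20, and 0 and 3.

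Leaving out 1 library at a time gave 0 to 220, 0 to 16, 0 to 37, 0 to 219, 1 to 976 and 1 to 1026 called copies in that order, and 0 to 4 subfamilies for DAXX in TKO and for the interaction. It gave L1Md_Gf changes of -0.80 to 0.00099 for DAXX, -0.16 to 0.56 for DNMT, -0.65 to 0.22 for medium and -0.20 to 1.03 for DAXX in J1. L1Md_F ranged from -0.33 to 0.28 for DNMT and from -0.64 to 0.0027 for medium. L1Md_F2 ranged from -0.053 to 0.41 for DNMT, -0.51 to 0.028 for medium and -0.022 to 0.62 for DAXX in J1, and L1Md_F3 from -0.14 to 0.45 for DAXX in J1. The ratio ranged from -0.15 to 0.036 for DAXX, -0.072 to 0.11 for DNMT and -0.046 to 0.14 for medium. The L1Md_F2 copy on chromosome 7 at 49782375 ranged from -0.059 to 1.67 for DAXX in TKO. Of the other values of named copies, 212 stayed called in the same direction and 101 were no longer called.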

Other observations

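Some F copies were transcribed at the level of L1Md_Gf and with its profile, and these were chosen after their values were seen. The L1Md_F2 copy with the nearest profile, on chromosome 5 from 62600535 to 62605942, averaged 2.86 RPKM and correlated with L1Md_Gf at 0.998 over the 8 libraries. It had 1.39 RPKM in TKO DAXX-knockout 2i, 3.45 in TKO 2i, 2.33 in TKO DAXX-knockout regular, 5.40 in TKO regular, 3.85 in J1 DAXX-knockout 2i, 2.03 in J1 2i, and 2.27 for J1 DAXX-knockout regular beside 2.14 for J1 regular. L1Md_F2 copies on the X chromosome at 40114318 and at 21442234 averaged 2.71 and 2.81 RPKM, at correlations of 0.995 and 0.987. The values share libraries, and whether these copies received reads of L1Md_Gf copies was not tested.

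At the other end stood the L1Md_F2 copy on chromosome 5 from 111779168 to 111785186, with a correlation of -0.54. It had 0.93 RPKM in TKO DAXX-knockout 2i, 0.75 in TKO 2i, 0.81 in TKO DAXX-knockout regular, 0.73 in TKO regular, 0.94 in J1 DAXX-knockout 2i, 1.20 in J1 2i, and 0.87 for J1 DAXX-knockout regular beside 0.92 for J1 regular. Its level varied less over the libraries than that of L1Md_Gf. This copy lay inside a longer assembled locus in 8 of 8 libraries.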
